A study of Mus musculus with 4 samples.

Results

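The 9 genes described here encode proteins of the acute phase and of complement control, all but Serpina3g known as secreted: the serpins Serpina3n, Serpina3c, Serpina3g, Serpina5 and Serping1, the lipocalin Lcn2, the leucine-rich glycoprotein Lrg1, and the complement proteins C3 and C4b. They were taken by gene symbol from a count table of 28595 genes, and all 9 were found. They were chosen by their values in these same libraries, in the genotype and region contrasts given below, so their differences are a description and carry no test.

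Counts came from 10 µm mouse testis sections and 4 groups of 3 libraries. The groups were H3t knockout libraries aimed at Leydig cells, wild-type libraries aimed at Leydig cells, H3t knockout libraries of the entire section, and wild-type libraries of the entire section. In photo-isolation chemistry, ultraviolet light uncages blocked primers, so that RNA copied inside the lit area becomes a library. H3t is a histone H3 variant of male germ cells, and the series describes the H3t-deleted testis as one in which spermatogenesis is disrupted. The knockout is not confined to Leydig cells by any label. Titles of the wild-type samples carry the word young, while the sources used here give no knockout age and no strain. Each group is 1 deposited sample with 3 numbered libraries. No source says whether a group's libraries are from different mice, and the spread behind each p-value may be technical only.

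An acute-phase response is the change in secreted plasma proteins, made mostly by the liver, that follows tissue injury or infection, and it is driven by interleukin-6 and interleukin-1 signalling and by glucocorticoids. Serpins are protease inhibitors that trap their target in a covalent complex. Complement is a protease cascade that marks surfaces for uptake or lysis. C1r activates C1s, C1s cuts C4 and C2, and the resulting enzyme cuts C3. The serpin C1 inhibitor (Serping1) stops the first step. In the testis, Leydig cells make testosterone between the seminiferous tubules, Sertoli cells support the germ cells inside them, and resident macrophages lie beside the Leydig cells. Serpina3g is known as an inhibitor that acts inside cells.

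4 of the 5 serpins lie in one stretch of chromosome 12. On GRCm38, Serpina5 is at chr12:104101113-104106137 on the plus strand, Serpina3c at chr12:104146382-104153870 on the minus strand, Serpina3g at chr12:104236245-104241939 on the plus strand and Serpina3n at chr12:104406729-104414329 on the plus strand. On chromosome 2, Serping1 lies at chr2:84765387-84775444 and Lcn2 at chr2:32384633-32388252, both on the minus strand. C4b (chr17:34728380-34743882), Lrg1 (chr17:56119678-56122001) and C3 (chr17:57203970-57228136) are on the minus strand of chromosome 17. Positions are those of whole genes in the GENCODE annotation.

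Promoter sequences, 250 bases before to 50 bases after the RefSeq start (GRCm38.p6), were present for 7 of the 9 genes, Serping1 and C4b having none in the table. 3 are shown: Serpina3n and Serpina3c because these genes of the cluster had 31 counts or fewer in wild-type sections and have nearly the same promoter, and Lcn2 because it held most of the counts. Capitals mark a palindrome bound by steroid hormone receptors (GNACA, 3 bases of any kind, then TGTNC) in the Serpina3 promoters and a C/EBP word (TTGCNNAA) in that of Lcn2. C/EBP factors act downstream of interleukin-6.
Serpina3n promoter, chr12:104406458-104406757, plus strand: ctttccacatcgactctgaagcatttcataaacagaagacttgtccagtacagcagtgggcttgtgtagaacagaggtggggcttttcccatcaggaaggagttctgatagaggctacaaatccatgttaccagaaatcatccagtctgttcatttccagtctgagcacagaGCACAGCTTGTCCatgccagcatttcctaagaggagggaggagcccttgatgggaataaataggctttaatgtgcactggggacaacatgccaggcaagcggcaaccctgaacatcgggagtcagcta
Serpina3c promoter, chr12:104153823-104154122, minus strand: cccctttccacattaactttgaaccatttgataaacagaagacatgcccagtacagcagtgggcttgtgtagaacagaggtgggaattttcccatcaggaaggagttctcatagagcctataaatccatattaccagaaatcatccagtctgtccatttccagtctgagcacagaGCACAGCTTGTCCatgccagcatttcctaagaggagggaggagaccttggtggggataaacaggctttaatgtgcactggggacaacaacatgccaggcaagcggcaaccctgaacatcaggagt
Lcn2 promoter, chr2:32387690-32387989, minus strand: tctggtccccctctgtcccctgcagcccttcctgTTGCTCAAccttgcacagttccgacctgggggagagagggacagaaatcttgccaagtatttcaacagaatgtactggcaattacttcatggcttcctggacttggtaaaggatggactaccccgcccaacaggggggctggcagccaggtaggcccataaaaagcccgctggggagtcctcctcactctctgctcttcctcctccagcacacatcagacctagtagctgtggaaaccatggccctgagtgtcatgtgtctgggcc

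Serpina3n and Serpina3c promoters shared 275 identical bases in a gapped alignment, 91.7% of the 300-base window. The other pairs among members and cluster neighbours shared 53.7% to 72.3% of it. The steroid receptor palindrome begins 78 bases before the start of Serpina3n and 75 bases before that of Serpina3c. It was in neither orientation in the other 5 member promoters, and 156 of 32851 RefSeq promoters (0.475%) held it. A STAT word (TTCNNNGAA), found in 8.30% of promoters, was present in Serpina3g alone among the members. The C/EBP word, found in 10.8% of promoters, was present in Serpina5, Lcn2 and C3, and begins 216 bases before the Lcn2 start. The loose NF-kappaB word (GGG and CC with 5 bases of any kind between) was in 50.8% of promoters and is not marked. Both strands were searched, and no capital letters belong to more than 1 word. These matches are letters in a window and no measurement of binding. The Lcn2 window lies inside the GENCODE gene, whose annotated start is farther upstream.

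Depth set the precision of everything that follows. Entire sections had 247539 to 566527 counts per library and Leydig-targeted libraries 5947 to 54882, the smallest being wild-type Leydig-targeted replicate 3, where 1 count is 168 CPM (counts per 1000000 counts of the library). That library stood apart with a TMM scaling factor of 2.28, against 0.567 to 1.39 for the other 11. The gene H3f4, which encodes H3t, had 0 counts in the 6 knockout libraries and 1 count in the 6 wild-type libraries, too few to check the labels. Transcripts of 16 spermatocyte and spermatid marker genes made up 0.00911% ± 0.00358 of counts in knockout and 2.57% ± 0.705 in wild-type Leydig-targeted libraries, and 0.0513% ± 0.0415 in knockout and 4.75% ± 1.38 in wild-type sections (SD, n = 3 each). Wild-type Leydig-targeted libraries therefore held germ cell RNA as well.

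The shares of Leydig, Sertoli and macrophage markers moved with genotype in the opposite direction. The 14 Leydig markers in the table, all detected in every group, summed to 7.66% ± 0.777 of counts in knockout and 2.58% ± 0.980 in wild-type Leydig-targeted libraries, and to 4.33% ± 0.393 in knockout and 0.570% ± 0.197 in wild-type sections. Of 18 Sertoli markers, 17 were detected in Leydig-targeted libraries of each genotype (Fshr at 0), and all 18 in sections. They gave 0.472% in knockout and 0.260% in wild-type Leydig-targeted libraries, and 1.27% in knockout and 0.394% in wild-type sections. The 13 macrophage markers in the table gave 0.125% and 0.189% in knockout Leydig-targeted libraries and sections, against 0.0203% and 0.0252% in the wild-type ones, with Adgre1 and Cx3cr1 at 0 in Leydig-targeted libraries of both genotypes. Not every somatic list moved so in both regions. The 8 peritubular myoid markers gave 0.109% in knockout and 0.112% in wild-type Leydig-targeted libraries, and 0.194% in knockout and 0.0872% in wild-type sections. The Leydig, Sertoli and macrophage shares move with the member differences below, and their part in them was not tested. In such bulk libraries, more cells of a type and more RNA per cell cannot be told apart, so the members are given in CPM and also per 1000 Leydig marker counts.

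Lcn2, a lipocalin that binds bacterial siderophores and so withholds iron, held most of the members' reads, which are not divided by transcript length. It made up 87.8% of the members' 26212 counts in knockout sections and 87.8% of their 3251 counts in wild-type sections. In knockout Leydig-targeted libraries it had 19905, 17612 and 16636 CPM, and in wild-type ones 3717, 6033 and 6726 CPM. In knockout sections it had 22465, 12584 and 22979 CPM, and in wild-type sections 2845, 1190 and 2513 CPM. No library of one genotype reached the other in either region. In percent, Lcn2 alone was 1.81 ± 0.168 of all counts in knockout and 0.549 ± 0.158 in wild-type Leydig-targeted libraries, and 1.93 ± 0.586 in knockout and 0.218 ± 0.0876 in wild-type sections.

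**Figure D1:**
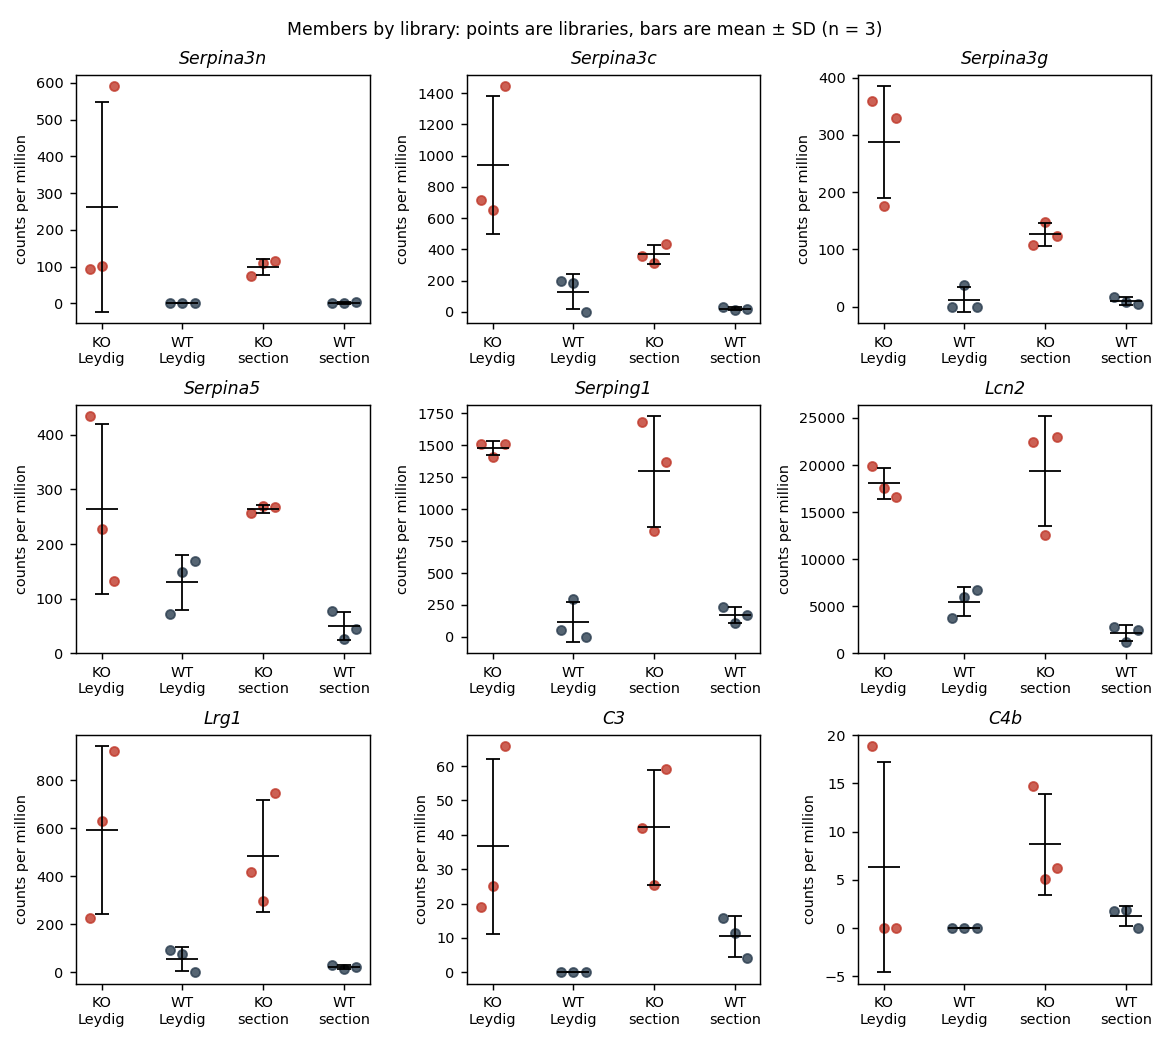
CPM (vertical axis, linear) of the 9 genes in each library, with 3 points per group and the mean ± SD as bars, for knockout and wild-type Leydig-targeted libraries and knockout and wild-type sections. Every knockout section lies above every wild-type section in all 9 panels, from Lcn2 at 12584 to 22979 against 1190 to 2845 CPM down to C4b at 5.10 to 14.7 against 0 to 1.91 CPM.

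Knockout sections exceeded wild-type sections for all 9 genes. CPM did not overlap between the genotypes for 9 of 9 members, beside 39.6% of all 5182 tested genes with knockout sections wholly above, a share that leaves out C3 and C4b, which were not tested. The filter on low counts, which asked for about 66.1 CPM in at least 3 libraries, passed 7 members and not C3 or C4b. Of these 7, 4 passed through knockout libraries alone, reaching that level in under 3 wild-type libraries. All 7 were called higher in knockout sections, beside 22.6% of tested genes called higher and 39.1% called lower. Since these contrasts chose the members, nothing is read from those counts. The median of all tested genes was -0.35 on the log2 scale after TMM scaling, so each fold below stands against that value.

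Among the serpins, Serpina3n, an acute-phase inhibitor of serine proteases, was nearly absent from wild type. It had 36, 43 and 37 counts in knockout sections, against 0, 0 and 1 in wild-type sections, a ratio of 87.3 on that 1 count with an exact 95% counting interval of 15.4 to 3479. Serpina3c had 357, 316 and 435 CPM in knockout sections and 33.5, 15.3 and 16.2 CPM in wild-type sections, a log2 fold change of 3.46 ± 0.53 (SE). Serpina3g, which is known to inhibit cathepsins, had 107, 148 and 124 CPM in knockout sections and 17.7, 7.65 and 4.04 CPM in wild-type sections (2.92 ± 0.54). The 3 genes were at steady levels within the knockout group, with SDs of 21.3, 60.4 and 20.4 CPM around means of 100.1, 370 and 126 CPM.

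Serpina5 is the protein C inhibitor, which also inhibits the sperm protease acrosin and which male mice need for fertility. It had 256, 270 and 267 CPM in knockout sections and 77.7, 26.8 and 44.4 CPM in wild-type sections, the smallest of the called folds at 1.85 ± 0.46. Serping1, the C1 inhibitor, had 1686, 829 and 1371 CPM in knockout sections and 231, 109 and 170 CPM in wild-type sections (2.39 ± 0.48). Replicate 2 was lowest of its group in both genotypes for Serping1 and also for Lcn2. Serpina5 by contrast differed by an SD of only 7.29 CPM among the knockout sections.

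Lcn2 was higher by 2.62 ± 0.46 in knockout sections. Lrg1, which modifies transforming growth factor beta signalling in vessels, had 416, 296 and 746 CPM in knockout sections and 31.8, 13.4 and 24.2 CPM in wild-type sections (3.82 ± 0.53). C3, the protein on which all complement routes meet, had 20, 10 and 19 counts in knockout sections and 9, 6 and 1 in wild-type sections, a pooled ratio of 2.31 (counting interval 1.29 to 4.34). C4b, a part of the classical and lectin routes, had 7, 2 and 2 counts in knockout sections and 1, 1 and 0 in wild-type sections, a ratio of 4.14 with an interval of 0.904 to 38.5. With no filter on low counts, the fitted difference was 1.56 ± 0.58 for C3, which was then called, and 2.05 ± 1.02 for C4b, which was not.

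Close copies limit what the Serpina3 and C4b counts can show. Of the 50-base words in the transcripts of a member, 34.6% also occur in another gene for C4b (all in C4a), 15.5% for Serpina3g, 6.90% for Serpina3n and 4.25% for Serpina3c. The other 5 members shared none. The sources used here do not say how shared reads were counted, so counts of these 4 genes could be split among copies. C3 overlaps the small gene Mir6978, and no strand setting is given.

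Along the chromosome, the counts of the serpin cluster lay in few of its genes. From Serpina5 to Serpina3n, 313 kb hold 15 Serpina genes and pseudogenes, of which 12 were in the count table. The 4 members held 169 of 182 cluster counts in knockout and 26 of 31 in wild-type Leydig-targeted libraries, and 1013 of 1090 in knockout and 116 of 187 in wild-type sections. Serpina3a, next to Serpina5, had 61 counts in knockout sections and 62 in wild-type sections, a log2 fold change of -0.43 ± 0.47 (edgeR adjusted p = 0.435), which did not pass the test. The remaining 7 genes had at most 7 counts in any group. Serpina3i had 7 counts in knockout sections and 0 in wild-type sections, at least 1.76-fold higher with the wild-type group set at 3 counts.

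**Figure D2:**
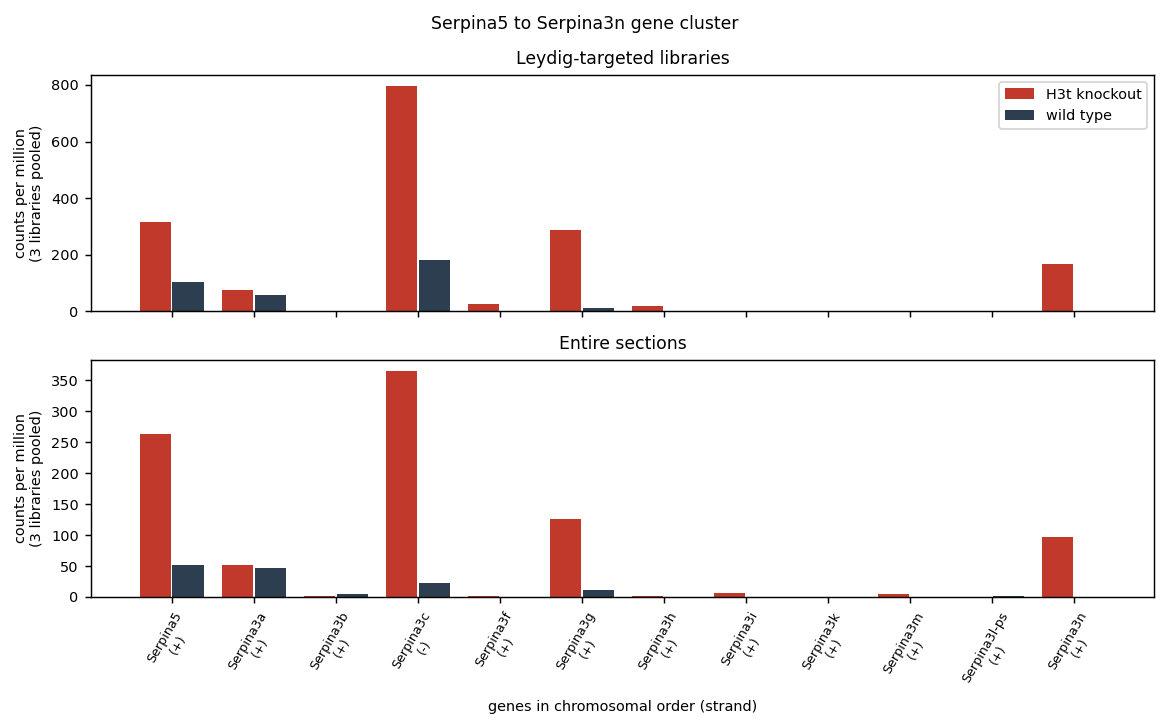
Pooled CPM (vertical axes, linear, from 0) of the 12 Serpina genes in chromosomal order, with knockout bars left of wild-type bars, in Leydig-targeted libraries above and entire sections below. Serpina5, Serpina3c, Serpina3g and Serpina3n carry the knockout counts, while Serpina3a has near-equal bars in sections (61 and 62 counts).

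In Leydig-targeted libraries the same 7 genes were tested, and 6 of 7 were called higher in the knockout, all but Serpina5. That stands beside 7.55% of tested genes called higher and 20.9% called lower, and the median of all tested genes was -0.28. CPM did not overlap for 7 of 9 members (6 of the 7 tested), beside 13.5% of tested genes. Nothing is read from these counts either, as the same contrast chose the members. Serpina5 and C4b overlapped.

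Serping1 there had 1509, 1411 and 1512 CPM in knockout libraries and 54.7, 298 and 0 CPM in wild-type ones (3.27 ± 0.66). Those wild-type values are 3, 8 and 0 counts. Serpina3c had 717, 655 and 1447 CPM in knockout and 200.4, 186 and 0 CPM in wild-type libraries (2.07 ± 0.62). The knockout values of Serping1 lay within an SD of 57.7 CPM, while those of Serpina3c spread with an SD of 440.2 CPM around replicate 3. Serpina3g had 31 counts over the knockout and 1 over the wild-type libraries, a ratio of 21.6 (3.60 to 879). Serpina3n had 5, 4 and 9 counts in knockout libraries and none in the wild-type ones, at least 4.18-fold higher with the wild-type group set at 3 counts. Both genes thus had counts in all 3 knockout libraries, on very few wild-type reads.

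Lcn2 differed by 1.77 ± 0.45 between knockout and wild-type Leydig-targeted libraries. Lrg1 had 226, 630 and 921 CPM in knockout and 91.1, 74.5 and 0 CPM in wild-type libraries (2.51 ± 0.75). Serpina5, with 434, 227 and 132 CPM in knockout and 72.9, 149 and 168 CPM in wild-type libraries, overlapped between the genotypes (1.28 ± 0.73). C3 had 1 count in each of the knockout libraries and 0 in the wild-type ones, and C4b had 1 count in all, so neither was measurable at this depth.

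Several of these Leydig-targeted calls were lost when 1 library was left out. Each such fit was filtered and scaled anew. It tested 2261 to 2298 genes without an entire section and 8101 to 8306 without a Leydig-targeted library, against 5182 in the main fit. The part of the changed gene set and scaling in these shifts was not tested. Without wild-type replicate 3, the calls of Serpina3c (1.22), Lcn2 (1.06) and Lrg1 (1.68) were lost. Without knockout replicate 2, those of Lcn2 (1.49) and Lrg1 (1.92) were lost, and without wild-type section replicate 3, which shares the fit, that of Serpina3c (1.48). Serping1 was called in all 12 such fits, at 2.46 without wild-type replicate 3 to 5.02 without wild-type replicate 2, and so was Serpina3g. Without wild-type replicate 1, Serpina3c was at 3.04 and Lrg1 at 3.60, and without wild-type replicate 2 Lcn2 was at 2.43. Serpina3n fell below the filter whenever an entire section was left out and was called in the other 6. In entire sections no member lost its call in any fit that tested it. There, Lcn2 was at 3.27, Serping1 at 3.05 and Lrg1 at 4.51 without knockout section replicate 2, and Serpina3c was at 4.17, Serpina3g at 3.83 and Serpina5 at 2.59 without wild-type section replicate 1.

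Set against Leydig marker counts, most of the section difference was smaller. Ptgds and Cyp17a1 held most of these marker counts. They had 22590 and 13633 of 51466 in knockout sections, and 2346 and 3376 of 7386 in wild-type sections. This scale thus rests largely on those genes, whose proportions differed between the genotypes, and is no direct measure of Leydig cell RNA. Per 1000 Leydig marker counts, Lcn2 was 441 ± 101 in knockout and 377 ± 31.8 in wild-type sections, Serping1 was 29.5 ± 8.10 in knockout and 30.1 ± 4.32 in wild type, and Serpina5 was 6.15 ± 0.701 in knockout and 8.54 ± 2.38 in wild type (SD, n = 3 each). All 3 overlapped between the genotypes. Serpina3n was 2.33 ± 0.585 in knockout and 0.200 ± 0.347 in wild-type sections, Serpina3c 8.51 ± 0.797 in knockout and 3.90 ± 1.31 in wild type, and Lrg1 11 ± 4.53 in knockout and 4.03 ± 0.502 in wild type. Those 3 of the 7 tested members did not overlap, beside 0.598% of tested genes on this scale. Per 1000 Sertoli marker counts, all 7 did not, beside 8.88%.

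Fits scaled to marker counts gave the following. With Leydig marker counts as library size, the median of all tested genes in sections was -2.77, and the section folds were 3.87 ± 1.09 for Serpina3n, 1.42 ± 0.61 for Lrg1, 1.08 ± 0.61 for Serpina3c, 0.60 ± 0.60 for Serpina3g, 0.22 ± 0.61 for Lcn2, -0.03 ± 0.61 for Serping1 and -0.50 ± 0.56 for Serpina5. Serpina3n and Lrg1 were called, and Serping1 and Serpina5 had the other sign than with TMM scaling. With Sertoli marker counts as library size (median -1.50), all but Serpina5 (0.76 ± 0.46) were called. Of all calls in sections, 1170 were higher and 2024 lower with TMM, 1861 and 1707 with library size alone, 195 and 3029 with Sertoli scaling, and 10 and 4202 with Leydig scaling.

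**Figure D3:**
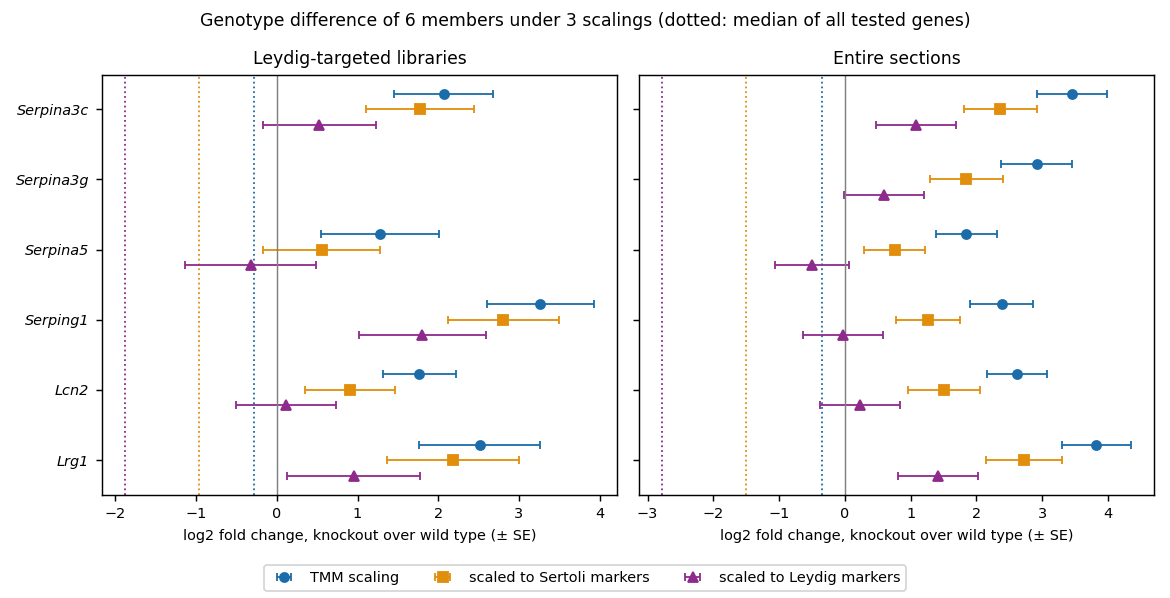
Log2 fold change of knockout over wild type (horizontal axes, ± SE) of 6 members in Leydig-targeted libraries, left, and entire sections, right, after TMM scaling (circles) or scaling to Sertoli (squares) or Leydig (triangles) marker counts, with dotted lines at the median of all tested genes. Serpina3n is left out in both panels and Serpina3g in the left one, where wild type had 0 or 1 counts. The triangles of Lcn2, Serping1 and Serpina5 in sections lie at 0.22, -0.03 and -0.50, while those of Lrg1 and Serpina3c lie at 1.42 and 1.08.

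In Leydig-targeted libraries, Serping1 per 1000 Leydig marker counts was 19.4 ± 2.18 in knockout and 4.33 ± 4.65 in wild type, without overlap. Lcn2 was 239 ± 46.6 in knockout and 220.4 ± 34.1 in wild type, Serpina5 3.61 ± 2.44 in knockout and 5.03 ± 0.421 in wild type, and both overlapped. In all, 3 of the 7 tested members did not overlap (Serpina3n, Serpina3g and Serping1), beside 2.88% of tested genes, and per 1000 Sertoli marker counts 5 of 7, beside 6.95%. Scaled to Leydig marker counts, Serpina3n was the only called member, while Serping1 (1.80 ± 0.79) and Lcn2 (0.12 ± 0.62) were not. Scaled to Sertoli marker counts, Lcn2 (0.90 ± 0.56) was not called.

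Comparing the regions within a genotype asks whether a transcript was enriched where light was aimed at Leydig cells. In the knockout, no member was called, beside 1.91% of tested genes called higher and 3.53% called lower in Leydig-targeted libraries. Serpina3c (1.0 ± 0.47), Serpina3g (0.97 ± 0.50) and Serpina3n (0.69 ± 0.57) had the highest values, of which Serpina3c was at 0.28 and Serpina3n at -0.63 without knockout Leydig-targeted replicate 3. Lcn2 (-0.34 ± 0.44), Lrg1 (-0.11 ± 0.49), Serping1 (-0.05 ± 0.47) and Serpina5 (-0.04 ± 0.51) were near 0, against a median of -0.42 for all tested genes. Knockout Leydig-targeted CPM lay wholly above knockout sections for Serpina3c (655 to 1447 against 316 to 435) and Serpina3g (176 to 358 against 107 to 148), beside 8.34% of tested genes. The Leydig markers as a group had a median of 0.69 in the same comparison, and 1 of their 14 was called.

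In wild type, Serpina3c was called higher in Leydig-targeted libraries (2.39 ± 0.71), beside 3.22% of tested genes called higher and 12.4% called lower, with a median of -0.67. Its 11, 5 and 0 counts make 200.4, 186 and 0 CPM, against 15.3 to 33.5 CPM in wild-type sections, so the groups overlap through replicate 3. That call was lost without wild-type Leydig-targeted replicate 1 (1.44) or replicate 2 (2.02), and with no filter on low counts. Lrg1 (1.20 ± 0.88), Serpina5 (0.53 ± 0.74), Lcn2 (0.51 ± 0.44) and Serping1 (-0.93 ± 0.68) were not called. These values moved in fits with 1 library left out, which were filtered and scaled anew. Without wild-type Leydig-targeted replicate 2, Lcn2 was at -0.10, Serpina5 at -0.13 and Serping1 at -2.64. Without wild-type Leydig-targeted replicate 1, Lrg1 was at 0.13. Lcn2 CPM lay wholly above, at 3717 to 6726 in wild-type Leydig-targeted libraries against 1190 to 2845 in wild-type sections, beside 7.78% of tested genes. Of the 14 Leydig markers, 8 were called higher in that comparison and 1 lower, with a median of 1.75.

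Per 1000 Leydig marker counts, Lcn2 was lower in the Leydig-targeted libraries than in sections of both genotypes. It had 197 to 289 in knockout Leydig-targeted libraries against 324 to 500.1 in knockout sections, and 187 to 255 in wild-type Leydig-targeted libraries against 347 to 410.4 in wild-type sections. These ranges did not overlap, beside 39.8% of tested genes wholly lower on this scale in the knockout and 67.9% in wild type. The genotype by region interaction called no member, beside 0.328% of tested genes (17 of 5182) called in either direction and 530 genes at an unadjusted p under 0.05. A larger or smaller genotype difference in one region than in the other was therefore not shown for any of the 7.

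Both knockout groups had higher mean CPM than both wild-type groups for every member, C3 and C4b on very few Leydig-targeted counts. The genotype contrasts chose the members, so nothing is read from this. The order of the regions differed between Lcn2, Serping1 and Serpina3c. Lcn2 means were 18051 ± 1678 CPM in knockout Leydig-targeted libraries and 19343 ± 5859 in knockout sections, which overlapped, then 5492 ± 1576 in wild-type Leydig-targeted libraries and 2183 ± 876 in wild-type sections. Serping1 means were 1478 ± 57.7 and 1295 ± 433 CPM in knockout Leydig-targeted libraries and sections, and 118 ± 159 and 170 ± 61.1 CPM in the wild-type ones, overlapping within each genotype. For Serpina3c the 4 groups ran from 940 ± 440.2 CPM in knockout Leydig-targeted libraries through 370 ± 60.4 in knockout sections and 129 ± 112 in wild-type Leydig-targeted libraries to 21.7 ± 10.3 in wild-type sections. The last pair of that order overlapped.

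The genes most like each tested member over the 12 libraries, by Pearson's r of log2 CPM, were mostly not among the other members. Lcn2 was closest to the glutathione transferase gene Gstm1 (0.977), then Tmem176a (0.960) and Cd81 (0.958). Serpina3c was closest to the nuclear receptor gene Nr2f2 (0.987), Serpina3g to the oestrogen receptor gene Esr1 (0.985) and then the interleukin-1 receptor gene Il1r1 (0.970), and Serpina3n to Armcx6 (0.971). Serping1 was closest to Spon1 (0.982), Serpina5 to Acaa2 (0.960) and Lrg1 to Reep3 (0.959), with the steroidogenic regulator Nr5a1 its number 3 at 0.951. Lcn2 was number 3 for Serpina5 (0.895). These values describe 12 libraries that share genotype, region and depth.

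The pathways around the members were covered by 6 lists of 174 genes, of which 156 were in the table and 31 were tested. In knockout sections 24 of the 31 rose and 1 fell, and in knockout Leydig-targeted libraries 8 rose and 1 fell, by edgeR with Benjamini-Hochberg adjustment over all tested genes. Of all tested genes, 22.6% rose and 39.1% fell in sections, and 7.55% rose and 20.9% fell in Leydig-targeted libraries. The filter shaped these counts, since 17 of the 31 passed it through knockout libraries alone and 1 through wild-type libraries alone, against 27.6% of all tested genes through knockout libraries alone. Such genes were high in the knockout to be tested, so no direction is read from the share that rose here or in the lists below. With no filter, 44 companion genes rose and 8 fell in sections, beside 2416 higher and 4639 lower among all 26389 genes then fitted. Of 48 untested listed genes with at least 10 section counts, 38 had higher and 10 lower pooled CPM in knockout than in wild-type sections. The share over all such genes was not computed, so no direction is read from that count either. Most of the liver reactants that define the acute phase were scarcely counted: 21 of 30 listed plasma proteins in the table had under 10 counts in the 12 libraries. Saa3, a serum amyloid A gene, had 4 counts in knockout and 1 in wild-type sections. The 7 hepatocyte markers in the table summed to 9 counts in knockout and 8 in wild-type sections, and to 0 in the Leydig-targeted libraries of both genotypes.

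Of acute-phase plasma proteins, 3 of 30 were tested, and all 3 rose in knockout sections, with a median of 1.92. They were Cp, the copper carrier ceruloplasmin (1.97 ± 0.50, adjusted p = 2.40e-04), Lbp, which hands lipopolysaccharide to its receptor (1.92 ± 0.58, adjusted p = 0.00200), and Itih2, a hyaluronan-binding inhibitor chain (1.45 ± 0.44, adjusted p = 0.00246). In Leydig-targeted libraries Itih2 alone was called, on 14 counts in the knockout and 1 in wild type (adjusted p = 0.0459). All 3 were below 0 in sections when scaled to Leydig marker counts, a scaling that lowered tested genes as a whole. All 3 passed the filter through knockout libraries alone, while Apoh, the phospholipid-binding apolipoprotein H, was not tested with 2 counts in knockout and 54 in wild-type sections.

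Of serpins outside the 5 members, 4 of 32 were tested. Serpinb1a, an inhibitor of neutrophil proteases, rose in knockout sections (3.47 ± 0.62, adjusted p = 8.82e-08), as did Serpinf1, pigment epithelium-derived factor (2.51 ± 0.69, adjusted p = 6.92e-04). Serpinb1a and Serpinf1 passed the filter through knockout libraries alone, so both were high in the knockout to be tested. Serpina3a and Serpinb6a did not pass the test, at -0.43 ± 0.47 and -0.46 ± 0.44. In Leydig-targeted libraries Serpinb1a had 24 counts in the knockout and 3 in wild type (adjusted p = 0.0344), and Serpinf1 had 8 and 0 (adjusted p = 0.0481). Of the 10 listed neutrophil markers 3 were in the table, and they summed to 1 count in knockout and 3 in wild-type sections and to 0 in Leydig-targeted libraries.

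All 5 tested complement components rose in knockout sections, with a median of 1.73, and 4 are named here. Of these, C1ra and C1s1 passed the filter through knockout libraries alone. The C1r protease gene C1ra rose by 2.59 ± 0.55 (adjusted p = 7.12e-06), C2, which joins C4 in the C3-cutting enzyme, by 2.27 ± 0.50 (1.53e-05), C1qc, a chain of the recognition unit, by 1.73 ± 0.46 (4.40e-04), and C1s1 by 1.49 ± 0.47 (0.00365). Of the untested components, C8b and C8g, chains of the membrane attack complex, had 1 and 16 counts in knockout sections, against 56 and 65 in wild-type sections. C1ra and C1s1 have close copies in the mouse genome, so their counts are uncertain. In Leydig-targeted libraries C1ra alone was called, with 35 counts in the knockout and 1 in wild type (adjusted p = 9.00e-04). C1q chains are made by macrophages, whose markers were also higher in knockout sections, at 0.189% ± 0.0969 against 0.0252% ± 0.00808 of counts, and the part of that shift in these values was not tested.

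The 3 tested regulators, Cd59a, which blocks the membrane attack complex (1.56 ± 0.46, adjusted p = 0.00147), Cr1l, the rodent regulator Crry (1.27 ± 0.46, adjusted p = 0.0118), and the chaperone clusterin, Clu (1.22 ± 0.45, adjusted p = 0.0132), all rose in knockout sections. Among untested regulators, Cd59b had 7 counts in knockout and 109 in wild-type sections, Cd46 had 6 and 50, and Cd55 had 8 and 26. Cr1l had passed the filter through knockout libraries alone. It was also called in Leydig-targeted libraries, with 20 counts in the knockout and 1 in wild type (adjusted p = 0.0130). Clu is abundant in Sertoli cells, whose marker share was 1.27% in knockout and 0.394% in wild-type sections. Scaled to Sertoli marker counts its value was 0.09, and scaled to Leydig marker counts -1.18. Both scalings lowered tested genes as a whole in sections, and the part of the Sertoli share in the Clu value was not tested.

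Of 11 tested cytokine-signalling genes 9 rose in knockout sections and none fell, with a median of 1.53, and 8 of the 11 had passed the filter through knockout libraries alone. Those with the smallest p were the leukaemia inhibitory factor receptor Lifr (1.86 ± 0.48, adjusted p = 2.73e-04), the glucocorticoid-induced chaperone Fkbp5 (1.80 ± 0.47, adjusted p = 3.42e-04), the interferon gamma receptor Ifngr1 (1.79 ± 0.48, adjusted p = 5.91e-04) and the interleukin-1 receptor Il1r1 (2.43 ± 0.69, adjusted p = 0.00107). Il1r1 had 51 counts in knockout and 7 in wild-type sections. In Leydig-targeted libraries Lifr had 89 counts in the knockout and 6 in wild type (3.40 ± 0.73, adjusted p = 9.75e-05) and Fkbp5 38 and 5 (2.43 ± 0.80, adjusted p = 0.0129). Il1b had 0 counts in all 4 groups. Il1a had 5 counts in knockout and 0 in wild-type sections, and Il6 had 0 and 1, too few to compare.

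Among 5 tested proteases and receptors that the members bind, 2 rose and 1 fell in knockout sections, with a median of 0.54. Acr, the sperm protease acrosin that Serpina5 inhibits, had 4 counts in knockout and 324 in wild-type sections (-6.54 ± 0.66, adjusted p = 7.99e-22), and 0 in knockout and 32 in wild-type Leydig-targeted libraries (adjusted p = 8.51e-06). The serpin-clearing receptor Lrp1 (2.15 ± 0.49, adjusted p = 4.32e-05) and the lysosomal protease cathepsin B, Ctsb (1.75 ± 0.47, adjusted p = 5.90e-04), rose in knockout sections. Ctsb rose also in Leydig-targeted libraries (1.51 ± 0.54, adjusted p = 0.0240). Lrp1 had passed the filter through knockout libraries alone and Acr through wild-type libraries alone. Slc22a17, described as an Lcn2 receptor, had 149 counts in knockout and 72 in wild-type sections and did not pass the test.

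**Figure D4:**
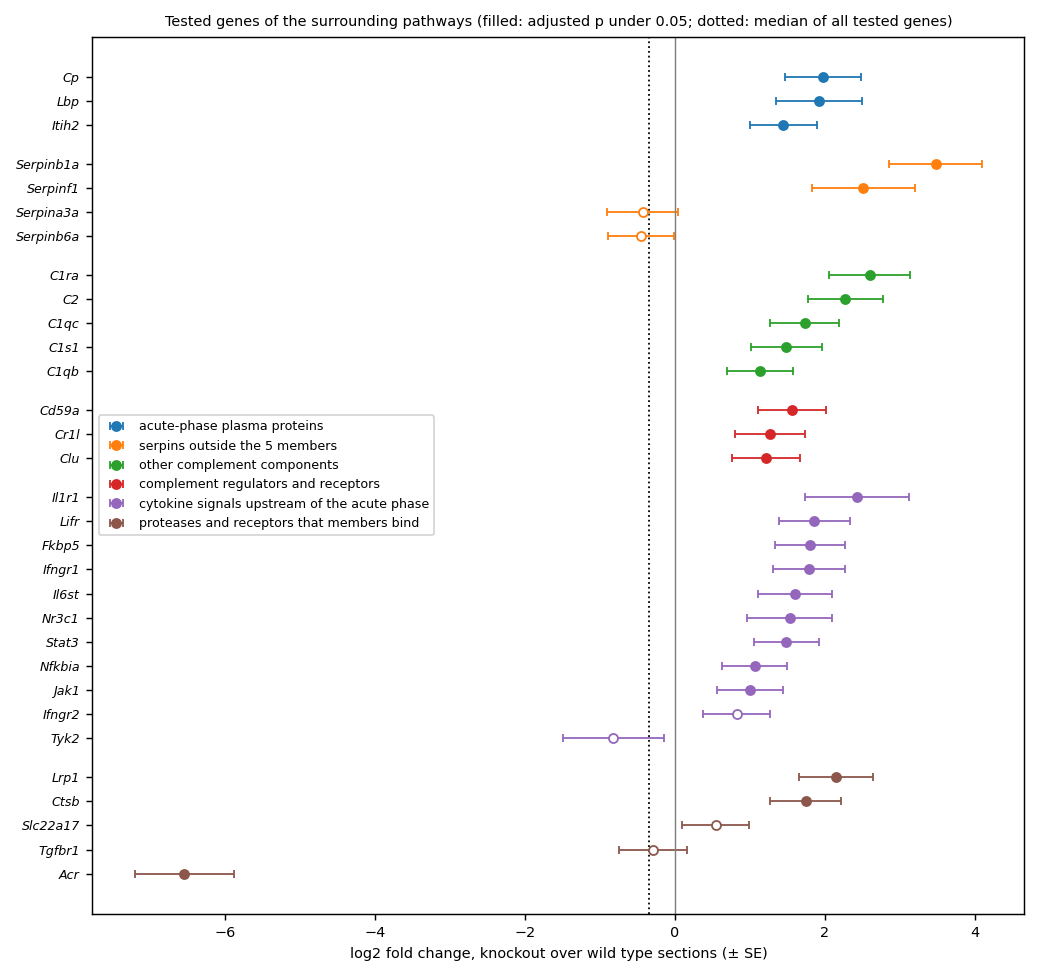
Log2 fold change of knockout over wild-type sections (horizontal axis, ± SE) of the 31 tested genes from the 6 surrounding lists, coloured by list, with filled points for an adjusted p under 0.05 and a dotted line at the median of all tested genes (-0.35). Filled points lie right of 0 for 24 genes, and Acr lies alone at -6.54.

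Between regions, few companion genes passed the test, and the interaction called none of the 31. In the knockout, Lifr rose (1.41 ± 0.47, edgeR adjusted p = 0.0496) and the interleukin-6 signal carrier Stat3 fell (-2.48 ± 0.72, adjusted p = 0.0188) in Leydig-targeted libraries relative to sections. In wild type, C2 rose (2.80 ± 0.57, adjusted p = 9.99e-05) and Serpinb6a, an intracellular serpin, fell (-2.42 ± 0.65, adjusted p = 0.00446). These 4 were named after their values were seen.

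Companion values depended on the scale used. Of the 19 companion calls named for sections, 14 had the other sign when scaled to Leydig marker counts and 15 lost the call when scaled to Sertoli marker counts. Both scalings lowered tested genes as a whole in sections. Of 5182 genes, 10 were called higher and 4202 lower with Leydig scaling, and 195 and 3029 with Sertoli scaling. These changes are therefore not particular to the companion genes. In Leydig-targeted libraries, C1ra and Lifr kept their calls in all 12 fits with a library left out. Acr lost it without wild-type Leydig-targeted replicate 1. Of the fits that tested them, Itih2 was called in 3 of 11, Serpinb1a in 3 of 12, Serpinf1 in 1 of 6, Ctsb in 5 of 12, Fkbp5 in 8 of 12 and Cr1l in 9 of 12.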

How the data were processed

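Gene counts were measured by photo-isolation chemistry in 12 libraries of mouse testis sections, 3 in each of 4 groups. The deposited values are raw whole-number counts per gene, with no normalization by the authors. UMI-tools, Trim Galore, HISAT2 and featureCounts with GRCm38 are named in the submitters' processing notes, without versions. The sources used here do not state UMI handling, multiply aligned reads or strand. All 28595 gene IDs matched the GENCODE annotation, and 2206 genes had no counts.

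Counts were fitted with edgeR 4.0.16 (R 4.3.3), using TMM scaling, robust quasi-likelihood tests, 1 coefficient per group over all 12 libraries and the package's filter at a minimum count of 10, which kept 5182 genes. A gene is called where its Benjamini-Hochberg adjusted p over all tested genes is under 0.05. CPM use library totals. Ratios of pooled counts, their intervals and the at-least folds use TMM-scaled library sizes, as does the log2 CPM used for likeness. Counting intervals are exact at 95% and, like the floor of 3 counts over a group, cover counting error only. A word search used RefSeq promoters, and likeness used log2 CPM with a prior count of 2. Alternatives were library size alone, DESeq2 1.42.0, no filter, the compared groups alone, scaling to Leydig or Sertoli marker counts, a replicate block and leaving out each library.

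Same-numbered sections of the 2 genotypes deviated together weakly (r = 0.243, 0.132 and 0.194). That is a hint from the data that section numbers pair the libraries. No label states such a pairing, what the numbers share was not tested, and the main fit left it out. The replicate block among the alternatives included it.

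Members and gene lists were chosen with earlier results of these data known. Named genes are all 9 members, at most 4 called genes of each list and genotype comparison by smallest p, the 3 genes most like each member with at least 50 counts that was tested (C3 was not), and Serpina genes of the cluster. Saa3, Il1a, Il1b, Il6, Slc22a17, Serpinb6a, Stat3, Apoh, C8b, C8g, Cd59b, Cd46, Cd55, Ptgds and Cyp17a1 were added after their values were seen. A listed gene is not reported here and is not in the counts.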

Additional observations from a re-analysis of the deposited data

How the results depend on the processing

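Of 620 member folds refitted under another setting, 487 stayed within 1 SE, 131 moved further and 2 changed sign from a called value: with scaling to Leydig marker counts, Serpina5 (-0.50) and Serping1 (-0.032) in sections. Members called were 2 in sections and 1 in Leydig-targeted genotype fits with that scaling. The compared groups alone gave 3 in the Leydig-targeted genotype comparison, where only 3 passed the filter, 1 for regions in the knockout and 0 in wild type. For regions, library size alone gave 1 in the knockout and 2 in wild type, Sertoli scaling 7 and 2, and no filter and the replicate block 0 in wild type. With 1 library left out, members called were 6 to 8 in sections, 3 to 6 in Leydig-targeted libraries, 0 for regions in the knockout, 0 to 1 in wild type and 0 for the interaction. C3 passed the filter and was called in sections when a Leydig-targeted library was left out, and without knockout Leydig-targeted replicate 3 the section fold of Lcn2 was 3.24. Same-numbered Leydig-targeted libraries of the genotypes did not deviate together (r = -0.00357, 0.00818 and -0.00629), nor did regions. The replicate block left 7 members called in sections and 6 in Leydig-targeted libraries, where Itih2 and Serpinf1 lost theirs.

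Companion genes called numbered 25 in sections, 9 in Leydig-targeted libraries, and 2 and 2 between regions in knockout and wild type. No filter gave 52 in sections and 1 and 7 between regions, and the compared groups alone gave 42, 1 in Leydig-targeted libraries and 6 between regions in the knockout. Leydig scaling gave 11 (all lower), 2, 4 and 12, and Sertoli scaling 8, 4 and, between regions in the knockout, 13. Library size alone and DESeq2 each gave 5 and 4 between regions, and the replicate block 0 in the knockout. Leaving out a library gave 15 to 43, 3 to 11, 0 to 7 and 3 to 5. Leydig scaling lowered tested genes as a whole, so the sign changes under it are not particular to the genes named next. With Leydig scaling these turned sign in sections: Cp -0.44, Lbp -0.48, Itih2 -0.98, C2 -0.14, C1qc -0.64, C1s1 -0.92, Cd59a -0.83, Cr1l -1.13, Clu -1.18, Lifr -0.49, Fkbp5 -0.56, Ifngr1 -0.58, Lrp1 -0.22 and Ctsb -0.67, and Ctsb in Leydig-targeted libraries (-0.10). Itih2 turned there without knockout Leydig-targeted replicate 2, its left-out fits running over -0.084 to 7.56.

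Over all genes, calls in sections, Leydig-targeted libraries, regions in the knockout, regions in wild type and the interaction were 3194, 1476, 282, 809 and 17. No filter gave 7055 in sections, 825 in Leydig-targeted libraries, 1602 for regions in wild type and 7 for the interaction. The compared groups alone gave 5238, 173, 468 and 346 in the first 4. Leydig scaling gave 490, 3235 and 31 and the block 14, 219 and 30 in the last 3, Sertoli scaling 1332 and 491 for the regions, and for the interaction library size alone gave 61 and DESeq2 72. The causes were not tested. At this depth C3 and C4b could not be measured in Leydig-targeted libraries.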
